A study of Rattus norvegicus with 14 samples.

Results

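The enzymes of the mitochondrial beta-oxidation spiral were followed in the left ventricle of diabetic and control rats, as 10 genes: Acsl1, Acadvl, Acadl, Acadm, Acads, Hadha, Hadhb, Hadh, Echs1 and Acaa2. They were chosen by name, as the probe sets (groups of short DNA probes on the array) whose annotation gives only that gene symbol. All 10 were measured, by 16 of the 31042 probe sets tested, and they make up 10 of 14217 named genes. Where a gene had several probe sets, the brightest represents it and the others are given beside it. The animals were male Wistar rats. The 7 controls had been given saline into the tail vein and the 7 diabetic rats streptozotocin at 60 mg/kg, which destroys insulin-secreting pancreatic cells, both under halothane. Hearts were perfused and the left ventricle taken after 16 weeks, and each animal's RNA went on 1 Affymetrix Rat Genome 230 2.0 array. The diabetic samples' description names a saline injection, against their title, source and protocol, which were followed. RNA was extracted with either of 2 kits, and the labels do not tie animals to kits. Body weight and blood glucose of the single animals are not analysed here, so how diabetic each animal was is not known. The comparison asks how expression in the ventricle differed after 16 weeks of streptozotocin diabetes.

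Beta-oxidation cuts fatty acids into acetyl-CoA inside mitochondria and is a main fuel pathway of the adult heart. A fatty acid is first joined to coenzyme A. The acyl-CoA then passes through repeated rounds of dehydrogenation, hydration, a further dehydrogenation and thiolytic cleavage, each round shortening it by a 2-carbon unit. Enzymes with different chain-length preference serve each step. Acadvl and the trifunctional protein are bound to the inner membrane, while the other dehydrogenases, Echs1, Hadh and Acaa2 are soluble in the matrix.

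Signals are given as log2(scaled signal + 50) after quantile normalisation, and differences are diabetic minus control on that scale. The number of arrays limits the precision. By their control probe sets the arrays formed 3 classes, each holding both groups (2 and 2, 2 and 2, 3 and 3 animals). The 3' over 5' log2 ratio of beta-actin, which is higher where RNA or its copies are shortened, was 1.41 to 1.71 in class 1, 0.67 to 0.84 in class 2 and 0.67 to 1.47 in class 3. Relative to the cre control, the log2 level of the spiked-in poly-A transcripts was -7.23 to -6.15 in class 3 and -5.02 to -4.41 in classes 1 and 2. The tissue carried its defining markers: 7 heart muscle genes averaged 14.82 to 14.89 per control animal and 14.75 to 14.84 per diabetic animal. Of these 7, 0 were called by limma, and 1, Myh6 (-0.22), had an unadjusted p under 0.05. All diabetic Myh6 values lay below all control values. In whole tissue, fewer cells of a type and less RNA per cell cannot be told apart.

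Of the 10 genes, limma called 1 higher and 1 lower in the diabetic ventricle (adjusted p under 0.05 over 31042 probe sets). Over all named genes 1.72% were called, 0.943% higher and 0.781% lower, and over all probe sets 1.14% (0.619% higher, 0.522% lower). Among the 943 named genes at least as bright as the dimmest of the 10, 3.71% were called (2.33% higher, 1.38% lower). The thiolase gene Acaa2 rose 1.32-fold and the hydratase gene Echs1 fell, to 0.702-fold. Hadha had the largest difference of the set (1.61-fold) and missed the threshold (adjusted p = 0.0528). Over the 10 genes 7 differences were positive and 3 negative, with a median of 0.23, against -0.002 over all named genes. Over the 943 bright genes 400 were positive and 543 negative, with a median of -0.03. At an unadjusted p under 0.05 the 10 genes gave 6 higher and 1 lower, where all named genes gave 5.60% and 5.93% (11.5% in all). Of the 943 bright genes, 72 were higher and 96 lower at that p. With the array class as a block 4 were called higher and 1 lower, against 1.54% and 1.55% of all named genes (3.09% in all). That fit called 39 of the 943 bright genes higher and 29 lower. With a trended robust variance prior 6 of the 10 were called, against 2.65% of all named genes (the share among the bright genes was not computed). By the exact permutation test (adjusted over all probe sets) 7 of the 10 passed, those whose groups did not overlap, against 1.84% of all named genes, each at adjusted p = 0.0485. Groups did not overlap in 7.00% of the 943 bright genes.

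The groups did not overlap in 7 of the 10 genes: all 7 diabetic animals lay above all controls for Acadvl, Acadl, Acadm, Hadhb, Hadh and Acaa2, and below them for Echs1. This held for 1.84% of all named genes (0.985% higher, 0.851% lower), and for 7.00% of the 943 bright genes (3.92% higher, 3.08% lower). The count rested on the scaling. It was 4 with cyclic loess, 3 with trimmed-mean scaling alone and 2 with array medians subtracted, where 6.57%, 5.41% and 3.50% of the bright genes separated. Echs1 and Acaa2 separated under all 4 scalings. Several members lie at the very top of the signal range (Acadl, Acadm and Hadhb each at percentile 99.9 of all probe sets), where quantile normalisation leaves little spread. The SD of the control Acadl values was 0.03 after it and 0.18 with array medians subtracted.

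**Figure D1:**
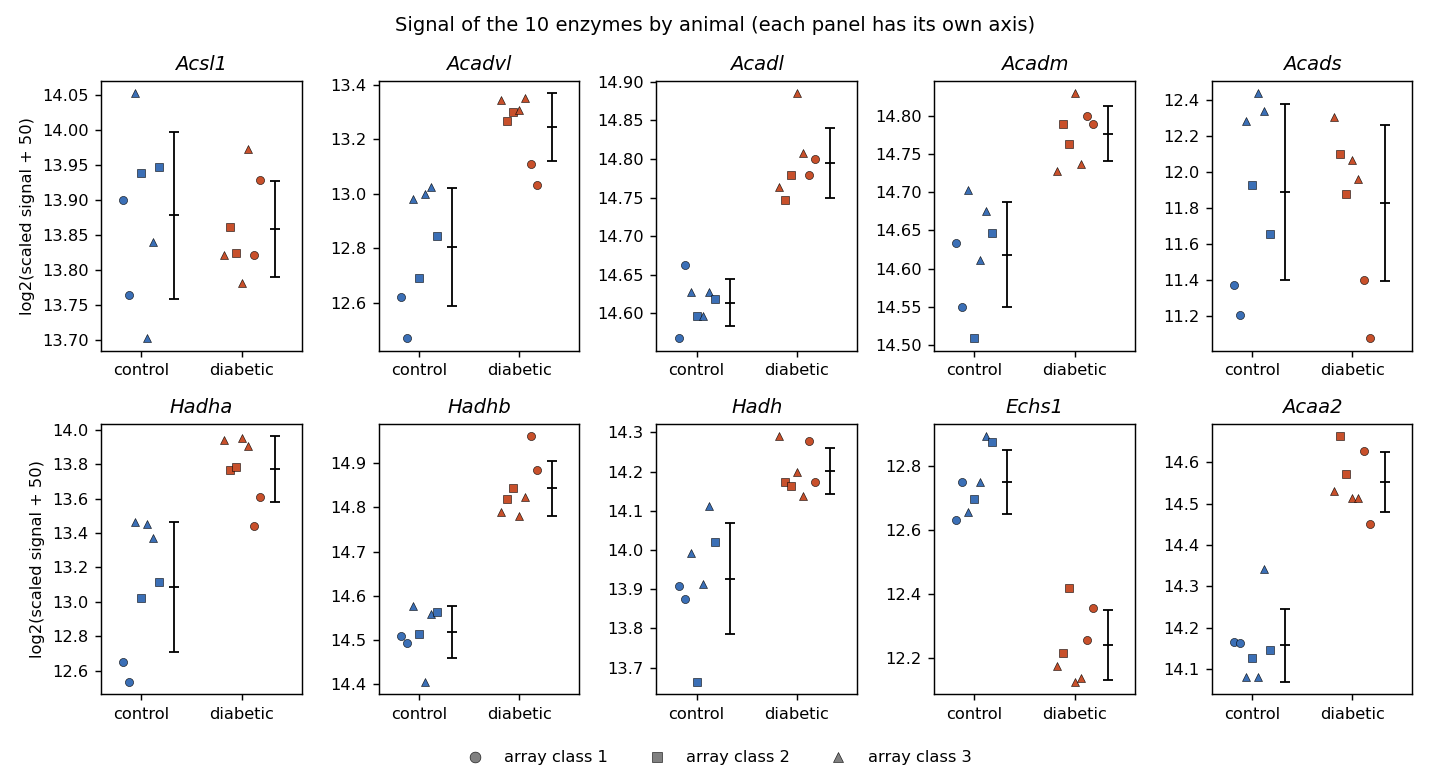
Log2(scaled signal + 50) of the brightest probe set of each gene in 7 control and 7 diabetic animals; points are animals, shapes the 3 array classes, bars the mean ± SD, and each panel has its own axis. Echs1 is the gene whose diabetic animals all lie below the controls, while 6 other genes show the opposite separation.

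The entry enzyme showed no difference that passed the test. Acsl1 encodes the main long-chain acyl-CoA synthetase of the heart, which activates fatty acids before the carnitine shuttle. Its signal ran from 13.70 to 14.05 (median 13.90) in controls and from 13.78 to 13.97 (median 13.83) in diabetic animals. The diabetic values lay within the control range, and the difference was -0.02 ± 0.09 (SE, limma adjusted p = 0.976; 95% interval 0.860-fold to 1.13-fold). The sign of this small value turned with cyclic loess, array medians subtracted, trimmed-mean scaling alone and the mean of the probe sets. A further bright probe set of Acsl1 differed by 0.25 ± 0.11 (adjusted p = 0.477), with 3 of 7 diabetic animals above all controls. The dim probe set of this gene, near the floor of 5.64 that the added 50 sets, differed by 0.12 ± 0.25.

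The 4 acyl-CoA dehydrogenases carry out the opening oxidation of each round, for chains from very long to short. Acadvl, the membrane-bound enzyme for very long chains, had signals from 12.47 to 13.02 (median 12.84) in controls and from 13.03 to 13.35 (median 13.30) in diabetic animals. The ranges came close without crossing, and the 1.36-fold difference (95% interval 1.14 to 1.61) was not called (log2 0.44 ± 0.12, SE, adjusted p = 0.0960). The Acadvl groups overlapped with cyclic loess and with array medians subtracted. With the array class as a block Acadvl passed (limma adjusted p = 0.00829). It differed by 0.53, 0.52 and 0.33 within classes 1, 2 and 3.

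Acadl, for long chains, had signals from 14.57 to 14.66 (median 14.62) in controls and from 14.75 to 14.89 (median 14.78) in diabetic animals. The difference was 0.18 ± 0.08 (adjusted p = 0.507), small beside that of Acadvl though the groups were apart. Acadm, for medium chains, ran from 14.51 to 14.70 (median 14.63) and from 14.73 to 14.83 (median 14.79), a difference of 0.16 ± 0.09 (adjusted p = 0.608). The groups of Acadl and Acadm overlapped under each of the other 3 scalings. Acads, for short chains, ran from 11.21 to 12.44 (median 11.93) in controls and from 11.08 to 12.31 (median 11.96) in diabetic animals. Its groups overlapped widely, with 1 diabetic animal below all controls (difference -0.06 ± 0.23, 95% interval 0.683-fold to 1.34-fold, adjusted p = 0.971), and the sign was positive in class 2 (0.20) and negative in class 3 (-0.24).

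The promoter of Acadvl is shown because it holds the closest match among the members to a pair of AGGTCA copies spaced by 1 base, the textbook element bound by PPAR with RXR, the receptors known to drive fatty acid oxidation genes. Windows from 250 bases before to 50 after the start were taken from RefSeq (build GRCr8) and matched by symbol for 8 of the 10 genes (Acadl and Acaa2 had none). Both strands were searched. With at most 2 letters differing, the repeat was found in 2 of the 8 windows, Acadvl and Echs1, and in 3.77% of 33469 windows of the same length. The Acadvl match differs by 1 letter and starts 17 bases before the start, and 0.439% of all windows hold a match that close. The shorter AGGTCA, which is contained in the repeat, was in 3 of the 8 windows (Acadvl, Hadhb and Echs1) and in 16.2% of all. TCAAGGTCA, bound by oestrogen-related receptors, was in 0 of the 8 and in 0.433% of all. Letters in capitals mark matches to AGGTCA or the repeat in the 250 bases before each start. Echs1 is shown as the member that fell, and Hadha as the one with the largest difference, with 0 matches.
Acadvl (chr10:55236706-55236955, minus strand): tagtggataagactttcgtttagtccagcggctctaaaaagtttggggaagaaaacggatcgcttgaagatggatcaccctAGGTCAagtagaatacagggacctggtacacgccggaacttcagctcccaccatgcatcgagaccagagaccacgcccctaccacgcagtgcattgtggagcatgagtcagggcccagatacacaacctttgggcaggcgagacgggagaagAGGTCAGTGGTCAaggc
Echs1 (chr1:204333507-204333756, minus strand): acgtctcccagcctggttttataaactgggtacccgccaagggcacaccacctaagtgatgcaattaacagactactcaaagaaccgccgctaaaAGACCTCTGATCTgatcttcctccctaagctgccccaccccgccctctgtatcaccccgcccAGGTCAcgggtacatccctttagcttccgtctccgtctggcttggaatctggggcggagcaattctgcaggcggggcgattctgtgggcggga
Hadha (chr6:31907551-31907800, plus strand): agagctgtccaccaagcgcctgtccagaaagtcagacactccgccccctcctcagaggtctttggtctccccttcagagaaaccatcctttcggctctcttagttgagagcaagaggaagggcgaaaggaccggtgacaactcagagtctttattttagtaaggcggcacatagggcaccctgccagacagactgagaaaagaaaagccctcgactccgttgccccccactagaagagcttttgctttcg

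The trifunctional protein does the last 3 steps for long chains on the inner membrane. Hadha encodes its alpha subunit, with hydratase and dehydrogenase activity, and Hadhb its beta subunit, the thiolase. Hadha signals ran from 12.54 to 13.46 (median 13.11) in controls and from 13.44 to 13.96 (median 13.78) in diabetic animals. All but 1 diabetic animal lay above all controls, and that animal was in class 1, where the controls were also low. The difference was 0.68 ± 0.16 (SE, 95% interval 1.27-fold to 2.04-fold, adjusted p = 0.0528). Within classes 1, 2 and 3 it was 0.93, 0.71 and 0.50, and in each class the diabetic animals lay above the controls. With class as a block Hadha passed (limma adjusted p = 0.000847). The 2 other Hadha probe sets were much dimmer (mean log2 7.58 and 6.60) and differed by -0.06 ± 0.25 and -0.24 ± 0.28. The mean of the 3 probe sets differed by 0.13 (adjusted p = 0.793), so the Hadha value rests on the bright one.

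Hadhb ran from 14.41 to 14.58 (median 14.51) in controls and from 14.78 to 14.96 (median 14.82) in diabetic animals, with a gap between the groups. The Hadhb groups also separated with cyclic loess, but overlapped with array medians subtracted and with trimmed-mean scaling alone. The Hadhb difference was 0.33 ± 0.09 (1.25-fold, adjusted p = 0.101, and 0.0383 with class as a block). Hadha and Hadhb are neighbours on chromosome 6, read in opposite directions, and their promoter windows share 200 bases. The Hadha sequence shown above therefore also covers part of the region before Hadhb.

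**Figure D2:**
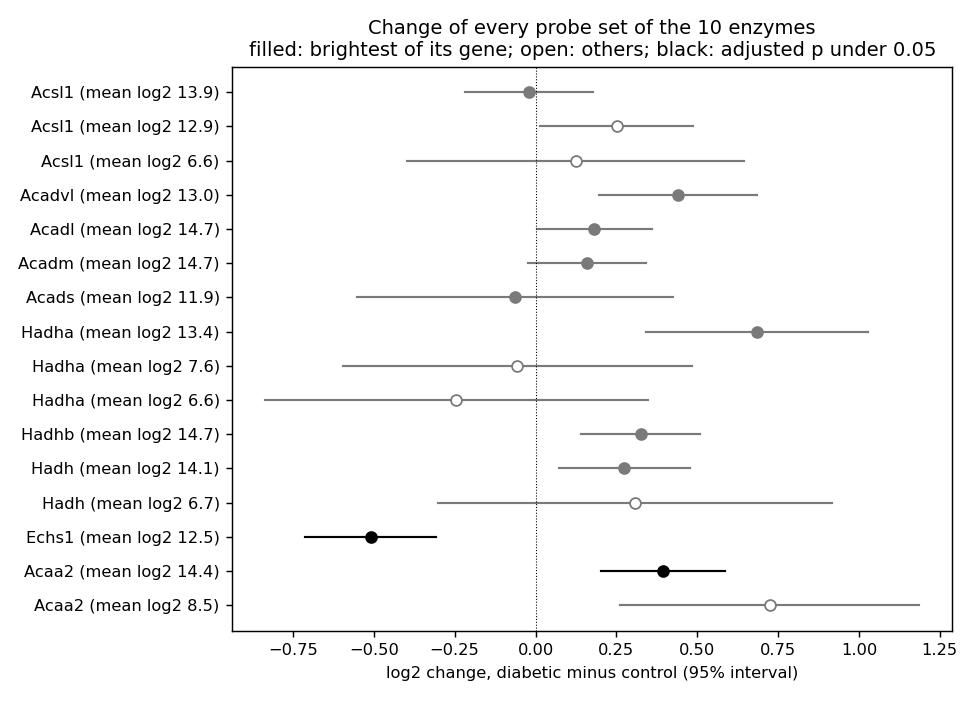
Log2 difference (diabetic minus control) of all 16 probe sets with the 95% interval of limma; filled circles are the brightest probe set of a gene, open circles the others, and black marks an adjusted p under 0.05. The intervals of Echs1 and of the bright Acaa2 probe set are the black ones, at -0.51 and 0.40, and dim probe sets have wide intervals.

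Among the matrix enzymes for shorter chains, 1 fell, 1 rose and 1 was not called. Echs1, the short-chain enoyl-CoA hydratase, which also serves valine and isoleucine breakdown, ran from 12.63 to 12.89 (median 12.75) in controls and from 12.13 to 12.42 (median 12.21) in diabetic animals. Every diabetic value lay below every control value, by a gap larger than the SD of either group (0.10 and 0.11). Echs1 fell by 0.51 on the log2 scale (SE 0.10, 95% interval 0.610-fold to 0.808-fold, limma adjusted p = 0.0116). The call held with each of the 14 arrays left out (adjusted p 0.0153 to 0.0319). It was lost with array medians subtracted (0.0556), without the 3 dimmest arrays (0.0738) and with the replicate number as a block (0.145). The difference was about the same (-0.51 in each).

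Acaa2, the matrix thiolase that ends each round, ran from 14.08 to 14.34 (median 14.15) in controls and from 14.45 to 14.66 (median 14.53) in diabetic animals. Control replicate 6 stood above the other controls and still below every diabetic animal. Acaa2 rose by 0.40 ± 0.09 (SE, 1.15-fold to 1.50-fold, limma adjusted p = 0.0440). This call was narrow: it held with only 1 of the 14 arrays left out, control replicate 6 (adjusted p = 0.0360), and the adjusted p reached 0.106 without the others. The dimmer probe set of Acaa2 differed in the same direction (0.72 ± 0.22, adjusted p = 0.178), with 5 of 7 diabetic animals above all controls. Hadh, the matrix hydroxyacyl-CoA dehydrogenase for medium and short chains, ran from 13.66 to 14.11 (median 13.91) and from 14.14 to 14.29 (median 14.17). Its difference of 0.27 ± 0.10 was not called (adjusted p = 0.289), though the groups did not overlap, and its dim probe set differed by 0.31 ± 0.29. With array medians subtracted or trimmed-mean scaling alone the Hadh groups overlapped.

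Enzymes of 1 step or 1 complex were compared on the same array, in 6 pairs, which removes only what both probe sets share. The class pattern was not shared: class 1 mean deviations were -0.37 for Hadha and -0.22 for Acadvl. They were -0.005 for Hadh, -0.002 for Acadl and 0.003 for Echs1, so differences between such genes keep it. Their p values come from an exact two-sided permutation test over 3432 assignments and are adjusted over the 6 pairs. The pairs were chosen with earlier results of these data known, which this adjustment does not cover. These tests ask whether 2 probe sets differed unequally between the groups, and say nothing about which gene has more RNA.

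The trifunctional alpha subunit and the matrix hydratase, which hydrate long and short chains, parted most. Hadha minus Echs1 ran from -0.21 to 0.81 (median 0.33) in controls and from 1.19 to 1.83 (median 1.55) in diabetic animals. No diabetic animal came near the control range, and the change was 1.19 (exact 95% interval 0.82 to 1.57, exact permutation adjusted p = 0.00350, from the smallest p that 7 against 7 animals can give). The change was 1.32, 1.18 and 1.13 within classes 1, 2 and 3, and 1.11 to 1.27 with each array left out. Hadha also moved more than the matrix dehydrogenase Hadh (change 0.41, exact interval 0.08 to 0.75, exact permutation adjusted p = 0.0408), with 5 of 7 diabetic animals above all controls.

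Among the acyl-CoA dehydrogenases, Acadvl minus Acadl ran from -2.19 to -1.60 in controls and from -1.77 to -1.42 in diabetic animals. The ranges overlapped, with 5 of 7 diabetic animals above all controls, and the change was 0.26 (exact interval 0.05 to 0.47, exact permutation adjusted p = 0.0408). The Hadha minus Hadh and Acadvl minus Acadl calls were lost with 11 and 9 of the 14 arrays left out, with adjusted p up to 0.0851.

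The other 3 pairs did not pass. Hadha minus Hadhb, the 2 subunits of the trifunctional protein, changed by 0.36 (exact interval -0.02 to 0.73, exact permutation adjusted p = 0.0874), so the data leave room for both equal and quite unequal shifts. With permutation within classes this pair passed (exact permutation adjusted p = 0.00417). The thiolases Hadhb and Acaa2 differed least: their difference changed by -0.07 (exact interval -0.17 to 0.03, adjusted p = 0.183). Acadm minus Acads changed by 0.22 (exact interval -0.32 to 0.77, adjusted p = 0.378).

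**Figure D3:**
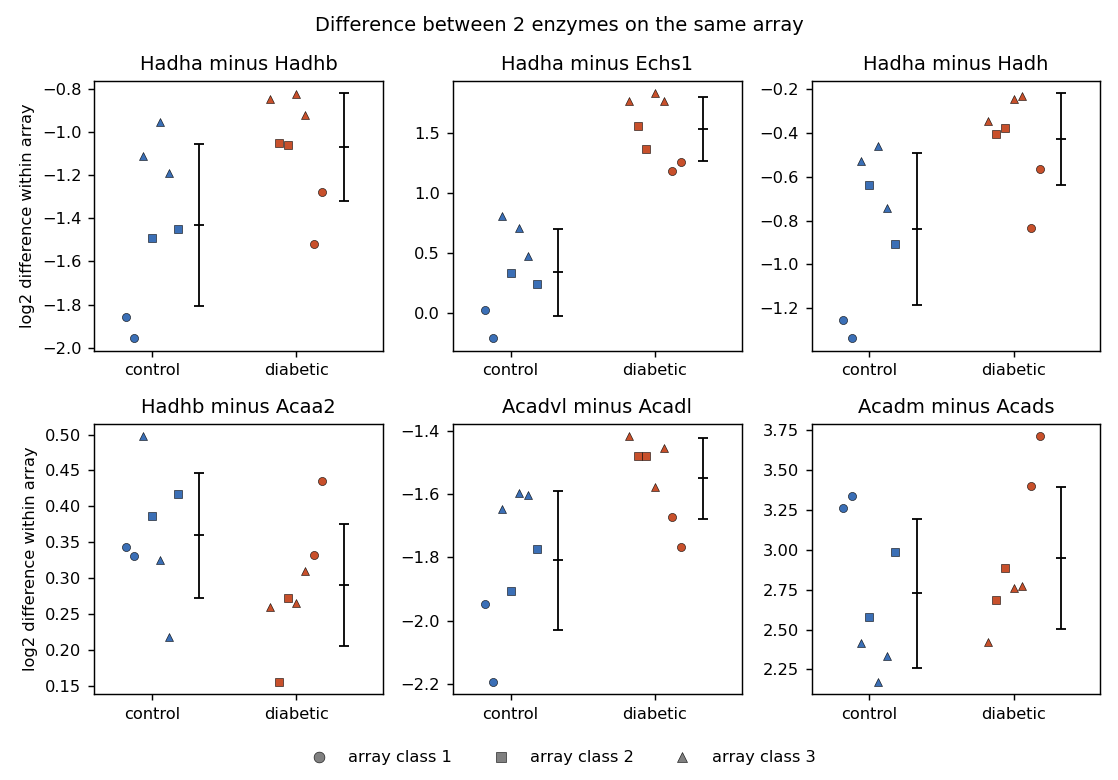
Log2 difference between 2 enzymes on the same array in 7 control and 7 diabetic animals; points are animals, shapes the array classes, bars the mean ± SD, and axes differ between panels. For Hadha minus Echs1 all diabetic animals (1.19 to 1.83) lie above all controls (-0.21 to 0.81), and in the other pairs the groups overlap.

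Among animals of a group the members did not vary as 1 block. Over the 45 pairs of members, the correlation of deviations from the group mean (14 arrays) had a median of 0.12 and ran from -0.41 to 0.95. The highest values joined Acadvl, Hadha and Acads (Pearson r 0.95 for Acadvl with Hadha, 0.91 for Acadvl with Acads and 0.89 for Acads with Hadha). These 3 genes followed the array classes. Mean deviations in class 1 were -0.22 for Acadvl, -0.37 for Hadha and -0.59 for Acads, against 0.14, 0.25 and 0.37 in class 3. After removing the class means the same correlations were 0.22, 0.02 and -0.32. For the other 7 genes no class mean lay further than 0.06 from the group mean. All 4 arrays of class 1 had beta-actin 3' over 5' log2 ratios of 1.41 or more. Diabetic replicate 5, in class 3, also had a ratio of 1.47. Its deviations were positive in all 3 genes (0.11 for Acadvl, 0.13 for Hadha and 0.14 for Acads), as were those of the other class 3 arrays. Among the diabetic animals of class 3 it was the lowest for Hadha and Acads and the highest for Acadvl. With the beta-actin ratio as covariate, Acadvl and Hadha differed between the groups by 0.46 and 0.72 (limma adjusted p = 0.0299 and 0.00895). Acads differed by -0.008 (limma adjusted p = 0.994). The part of the ratio in the spread of these 3 genes within a group was not tested.

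Genes whose deviations were most like the average of the 10, among 9371 named genes of at least median signal, were Nbas, Aqp7, Fabp4, Mia2 and Retsat (r from 0.82 to 0.87 over the 14 arrays). That average, of deviations divided by their SD, ran from -0.75 to 1.06 in controls and from -0.21 to 0.14 in diabetic animals. The spread behind these r values thus lay mostly in the controls. Aqp7, a glycerol channel, and Fabp4, a fatty acid binding protein, were also called higher in diabetic animals (log2 1.30 and 0.61). For Nbas, Mia2 and Retsat the differences were 0.42, 0.10 and 1.07 (adjusted p = 0.632, 0.836 and 0.220).

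**Figure D4:**
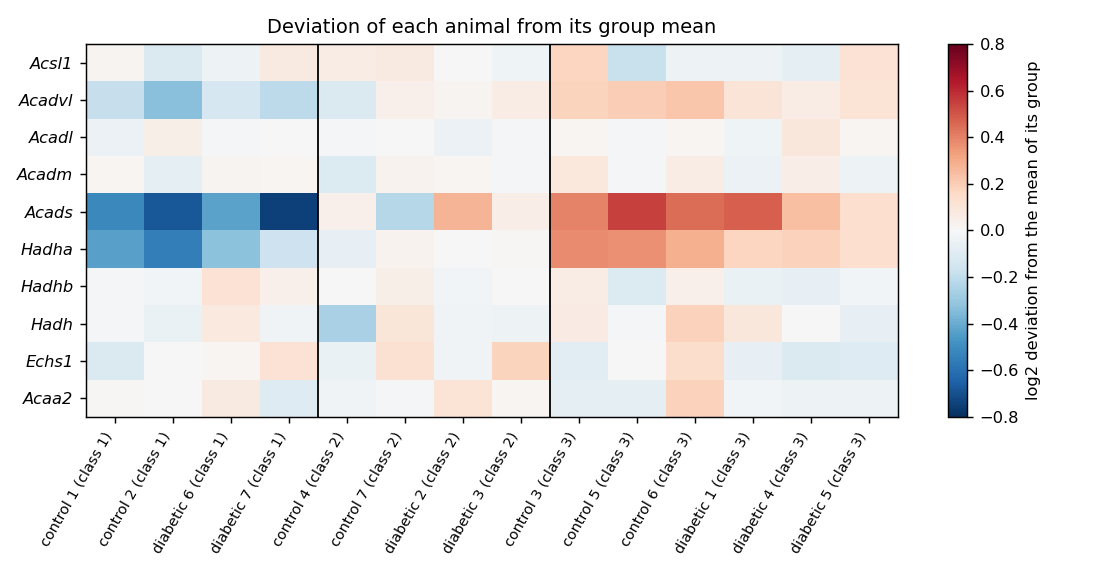
Log2 deviation of each animal from the mean of its group for the 10 genes (rows), with the 14 arrays ordered by class; red is above and blue below the group mean. Acadvl, Acads and Hadha are low in the 4 arrays of class 1 and high in the 6 of class 3, and the other genes show little pattern by class.

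The steps before and beside the spiral are given by list. Over all named genes limma called 0.943% higher and 0.781% lower (1.54% and 1.55% with class as a block). Whether the lists differ from the spiral was not tested. Of 7 carnitine shuttle genes, which bring long chains into the mitochondrion, 2 rose and 0 fell (median 0.44). With class as a block 4 were called higher and 0 lower. Cpt1a, the acyl transferase at the outer membrane, ran from 10.19 to 10.95 in controls and from 11.44 to 11.85 in diabetic animals (log2 1.09 ± 0.13, SE, adjusted p = 0.000253). Slc25a20, the carrier of acylcarnitines, rose by 0.44 ± 0.10. Cpt2 and Crat differed by 0.50 ± 0.14 and 0.77 ± 0.30 (limma adjusted p = 0.120 and 0.361). With class as a block both passed (limma adjusted p = 0.0285 and 0.000513). Of 6 genes for unsaturated chains and electron transfer, 3 rose and 0 fell (median 0.37), with the same counts with class as a block. Decr1, the reductase for unsaturated acyl-CoA, ran from 13.43 to 13.84 in controls and from 14.52 to 14.79 in diabetic animals, a rise of 1.08 ± 0.10, larger than the value of any of the 10 spiral genes. The isomerases Eci1 and Eci2 rose by 0.75 ± 0.10 and 0.47 ± 0.10. Etfdh and Etfa, which pass electrons from the dehydrogenases to the respiratory chain, differed by 0.27 ± 0.09 and 0.11 ± 0.10 (adjusted p = 0.259 and 0.829). The groups of Etfdh did not overlap, and those of Etfa did.

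Relatives of the members outside the spiral went both ways. Of 10 other acyl-CoA synthetases 0 rose and 1 fell: Acsl6, by -1.26 ± 0.28. With class as a block 0 were called higher and 2 lower, adding Acsf2 (-0.47, limma adjusted p = 0.00836). Acss1 differed by -0.34 ± 0.11 (limma adjusted p = 0.224, and 0.125 with the block). Of 7 other acyl-CoA dehydrogenases 1 rose and 1 fell. The class block called 2 higher and 1 lower, adding Acad10 (0.51, limma adjusted p = 0.00793). Gcdh differed by -0.41 ± 0.12 (limma adjusted p = 0.188, and 0.0832 with the block). Acad11, which acts on very long chains, rose by 0.79 ± 0.12, and Ivd, of leucine breakdown, changed by -1.10 ± 0.15, running from 12.16 to 12.88 in controls and from 10.91 to 11.70 in diabetic animals. Of 9 other hydratases, dehydrogenases and thiolases 1 rose (Ech1, a dienoyl-CoA isomerase, 0.60 ± 0.11) and 0 fell. Of 5 peroxisomal genes 1 rose (Hsd17b4, a bifunctional enzyme, 0.51 ± 0.10) and 0 fell, and Ehhadh, its counterpart, differed by 0.62 ± 0.17 (adjusted p = 0.106). The class block gave the same counts for these last 2 lists (1 higher and 0 lower in each).

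The genes listed as regulators (PPAR, RXR, ERR and PGC-1 genes, Nrf1 and Tfam) had no calls. Of these 13 genes 0 were called by limma (2 higher and 0 lower at an unadjusted p under 0.05, and 0 with class as a block), with a median of 0.02. The lowest p belonged to Pparg (0.57 ± 0.23, adjusted p = 0.399) and Tfam (0.20 ± 0.09, adjusted p = 0.509). Ppara (mean 6.35 in controls, near the floor of 5.64) and Ppargc1a differed by 0.07 ± 0.29 and -0.03 ± 0.15 (adjusted p = 0.973 and 0.980). As a reference for other mitochondrial genes, 31 of the citric acid cycle and respiratory chain had 0 calls by limma (0 higher and 2 lower at an unadjusted p under 0.05, and 0 with class as a block). Of these, 27 differences were negative and 4 positive, with a median of -0.08, beside 0.23 for the 10 spiral genes. The 943 bright genes also leaned negative (543 negative and 400 positive, median -0.03). At an unadjusted p under 0.05 all named genes gave 5.60% higher and 5.93% lower.

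**Figure D5:**
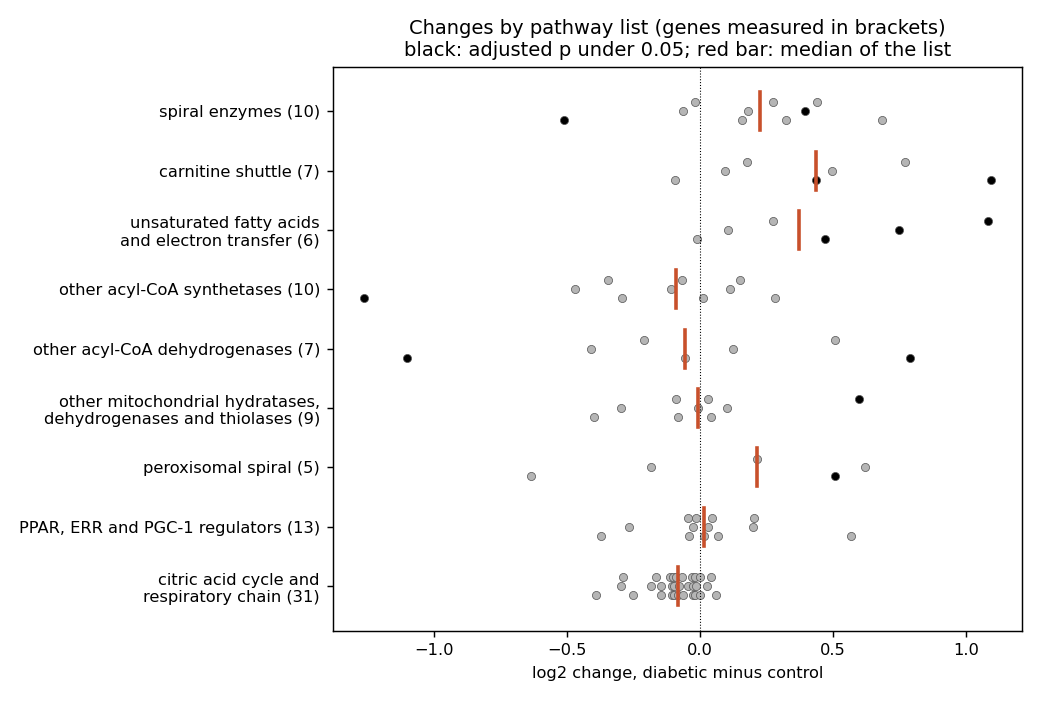
Log2 difference (diabetic minus control) of each measured gene, by list, with the number of genes in brackets; black points had an adjusted p under 0.05 and the red bar is the median of the list. The spiral enzymes have a median of 0.23, between the citric acid cycle and respiratory chain (-0.08) and the carnitine shuttle (0.44).

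Markers of other cell types were read as lists. Over all named genes limma called 0.943% higher and 0.781% lower, and 1.54% and 1.55% with class as a block. At an unadjusted p under 0.05 the shares were 5.60% higher and 5.93% lower. Of 5 fat cell markers 1 was called higher (Cfd) and their mean signal per animal was 6.62 to 7.22 in controls and 7.03 to 7.32 in diabetic animals, near the floor of 5.64. Limma called 0 of 6 macrophage markers (3 higher at an unadjusted p under 0.05, 1 with class as a block), and their mean per animal was 8.70 to 9.61 in controls and 9.30 to 9.99 in diabetic animals. All 6 macrophage differences were positive, with a median of 0.41. Among 4 atrial markers 0 were called (1 higher at an unadjusted p under 0.05, 0 with class as a block), with means of 9.36 to 13.04 and 9.80 to 13.21. All 4 atrial differences were positive, with a median of 1.03. Limma called 0 of 5 endothelial, 6 fibroblast and 4 smooth muscle markers (1, 0 and 0 at an unadjusted p under 0.05, and 0 with class as a block). Of 3 red blood cell markers limma called 1 lower (Slc4a1, -1.22), while Hbb and Alas2 differed by 0.69 and 0.56 (adjusted p = 0.680 and 0.599), and the median was 0.56. Their part in the differences of the spiral genes was not tested.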

How the data were processed

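Titles gave each sample's group and number. The deposited values are linear probe set intensities of 31099 probe sets, as the authors left them, with array medians from 14.8 to 85.3. Per the submitters' processing notes the tools included RMA, MAS5, limma and affy; which of them made the deposited values is not stated. Each array was scaled here to a trimmed mean of 500 (2% off each end), followed by an offset of 50, log2 and quantile normalisation, leaving out 57 control probe sets. Fold changes are on this scale and understate those of dim genes. Symbols came from the array's annotation (20826 probe sets with 1 symbol, 436 with several, 9780 with none). The test was limma 3.58.1 under R 4.3.3 (group only, two-sided, Benjamini-Hochberg over 31042 probe sets), checked on simulated data. Samples are separate animals per the labels. Array classes were set from control probe sets (spike-ins, beta-actin). Alternatives covered scaling, offset, filters, weights, blocks and left-out arrays. All members are named, and from other lists the called genes and up to 2 more of lowest p. Ppara and Ppargc1a were named beyond that rule and chosen after their values were seen. The 5 most similar genes were ranked by Pearson r. Protein sequences were not used here. Members, lists and pairs were chosen with earlier results of these data known. The 7 pairs of equal replicate number correlated between -0.16 and 0.09 in their deviations, so the numbers were not taken to pair animals.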

Additional observations from a re-analysis of the deposited data

Results flagged for a closer look

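The Acaa2 signal of control replicate 6 (14.34) stood apart from the other 6 controls, the nearest of which was at 14.17. Chance alone sets apart about 1 in 20 groups of this size, and 32 groups of values were examined.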

How the results depend on the processing

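Of the 10 genes, 2 were called in the test reported. The count was 1 with array medians subtracted, trimmed-mean scaling alone, an offset of 16 or the mean of a gene's probe sets. It was 4 with array weights or the beta-actin ratio as covariate, 5 with an offset of 200, the brighter probe sets alone or the class block, 6 with a trended robust prior, 3 with cyclic loess and 7 with the exact permutation test, which called 373 probe sets. It was 0 without the 3 dimmest arrays (limma; Echs1 adjusted p = 0.0738, Acaa2 0.238) and 1 to 3 with each array left out. All probe sets gave 354 calls, against 563 with an offset of 200, 560 among the brighter, 541 with the trended prior, 645 with the class block and 190 without the 3 dimmest arrays. They gave 510 with array weights, 413 with the beta-actin ratio as covariate and 353 with cyclic loess. Calls over all probe sets were 341 with trimmed-mean scaling alone, 285 with an offset of 16 and 270 with array medians subtracted. Groups were apart in 7 genes, against 4 with cyclic loess, 2 with array medians subtracted and 3 with trimmed-mean scaling alone. The counts of separated groups under other scalings were added after seeing the data.

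Hadha minus Hadhb passed with cyclic loess (0.39), array medians subtracted or trimmed-mean scaling alone (0.40 in each), the class block (0.36) and without the 3 dimmest arrays (0.49). Hadhb minus Acaa2 was 0.047 within class 1 and -0.19 within class 2. With each array left out, Hadha minus Hadhb ran from 0.27 to 0.44, Hadha minus Hadh from 0.33 to 0.47 and Acadvl minus Acadl from 0.20 to 0.30. The Acsl1 difference turned positive with cyclic loess (0.059), array medians subtracted (0.066), trimmed-mean scaling alone (0.045) and the mean of its probe sets (0.12), and ran from -0.048 to 0.010 with each array left out. That of Acads turned with array weights (0.083) and without the 3 dimmest arrays (0.045), and ran from -0.18 to 0.063 with each array left out. The cause of these shifts was not tested.

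The labels number the animals 1 to 7 in both groups, but 0 of the 7 numbers correlated best with their own partner. With the replicate block, limma called 142 probe sets and 0 of the 10 genes (Echs1 adjusted p = 0.145, Acaa2 0.301). Paired by number, Hadha minus Echs1 (1.19), Hadha minus Hadh (0.41) and Acadvl minus Acadl (0.26) did not pass (exact permutation adjusted p = 0.0938 each).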
